A study of Homo sapiens with 4 samples.

Results

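The genes described here are the Notch receptors NOTCH1, NOTCH2 and NOTCH3, the ligand JAG1 and the feedback gene NRARP. With them are the HES and HEY family genes HES1, HES2, HES4, HES6 and HEY1, called effectors here by family membership. Whether Notch controls each of these family genes in the cells used was not measured. All genes described here were selected on their rGAL1 minus Ctrl differences in an earlier analysis of the same arrays. In it HES2, HES6 and HEY1 stood out as lower, so the differences between the groups are given as descriptions with no test. Of the 10 listed genes, 9 had a probe set annotated with that 1 symbol alone, out of 14884 genes named on the arrays, and each had exactly 1 such probe set. HES1 had no named probe set and is not analysed here.

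RWP-1, an established human cell line from a pancreatic cancer, was measured on single-channel whole-transcript arrays after treatment labelled rGAL1 (2 arrays) and without treatment, labelled Ctrl (2 arrays). The agent rGAL1 is read as recombinant galectin-1, a galactoside-binding lectin that cells secrete; the labels state no dose, duration or vehicle. The array rGAL1 2 carries the title and source name of the rGAL1 group, but a treatment field that reads as untreated. Each member's difference is also given without this array. Over all probe sets, the standard deviation of the difference was 0.275 between rGAL1 2 and Ctrl 1 and 0.285 between the rGAL1 arrays. It was 0.299 between the Ctrl arrays and 0.303 between rGAL1 2 and Ctrl 2. On this measure the arrays did not separate by group. Whether replicate arrays stem from separate cultures is not stated, so the spread between them may be technical. All values are log2 RMA expression values as deposited, and the small number of arrays limits the precision.

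Notch receptors are transmembrane proteins that are cleaved after they meet a ligand on a neighbouring cell. The released intracellular domain enters the nucleus, binds the DNA-binding protein RBPJ and turns on target genes, above all members of the HES and HEY families of basic helix-loop-helix repressors. In the pancreas the pathway holds progenitor cells back from endocrine and acinar fates, and it is active again in ductal metaplasia and in pancreatic tumours. Fringe and other glycosyltransferases modify the sugars on the receptors.

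RBPJ binds DNA around the letters TGGGAA, and the stretches before the start sites of 4 HES genes show how the family differs in this respect. The 120 bases before each start are given 5′ to 3′ on the gene's own strand, from RefSeq on GRCh38.p14, with TGGGAA on either strand in capitals. HES1, the textbook RBPJ target, is shown for its pair of matches, although its level was not measured. HES4 is shown as the measured HES gene with a match, and HES2 and HES6 because they had lower values in rGAL1.
HES1 (chr3:194136028-194136147, plus strand): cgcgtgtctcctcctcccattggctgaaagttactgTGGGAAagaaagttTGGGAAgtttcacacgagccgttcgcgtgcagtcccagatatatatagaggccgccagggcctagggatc
HES4 (chr1:1000098-1000217, minus strand): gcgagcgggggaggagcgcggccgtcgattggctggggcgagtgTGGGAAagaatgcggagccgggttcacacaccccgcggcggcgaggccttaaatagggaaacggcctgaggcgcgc
HES2 (chr1:6419920-6420039, minus strand): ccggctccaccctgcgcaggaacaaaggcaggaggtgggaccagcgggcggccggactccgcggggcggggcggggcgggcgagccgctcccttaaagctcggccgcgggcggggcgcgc
HES6 (chr2:238240039-238240158, minus strand): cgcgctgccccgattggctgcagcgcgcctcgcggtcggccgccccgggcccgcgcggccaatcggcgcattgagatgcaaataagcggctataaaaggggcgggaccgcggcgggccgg

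In the full 250 bases before the start, HES1 held TGGGAA at 84 and 70 bases before the start and HES4 held it at 76 bases before the start. The longer form GTGGGAA, which overlaps the first, was found in the same windows of HES1 and HES4. No match to either was found in the windows of HES2, HES6, NRARP, JAG1, NOTCH1, NOTCH2 or NOTCH3, and the HEY1 window was not searched. Of 35116 promoters searched in the same way, on both strands, 20.8% held TGGGAA and 5.43% held GTGGGAA. The median GC content of all these windows was 58.0%. It was 59.2% for HES1, 74.8% for HES4 and from 68.4% to 78.4% in the members' windows without a match. The shares over all promoters were not matched for GC content. The letters CACNAG and CACGNG, bound by HES repressors, were found in 32.0% and 26.7% of all promoters. The HES1 window held 3 matches to CACNAG and 4 to CACGNG, some of them overlapping, the NOTCH3 window held 1 of each and the NRARP window 1 to CACGNG, while the windows of HES2, HES4 and HES6 held neither. These matches describe the letters in the windows and not binding in RWP-1 cells.

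Among the effectors and NRARP, HES2, HES6 and HEY1 had lower values on each rGAL1 array than on any Ctrl array, with mean differences of -0.30 to -0.39 log2 units, while HES4 and NRARP overlapped between the groups. HEY1 was dim in both groups. The receptors and JAG1 overlapped between the groups as well, with differences from -0.05 to 0.11. Across all probe sets, limma called 0 of 53617 at an adjusted p under 0.05, a share of 0%, with a smallest adjusted p of 0.919. At an unadjusted p under 0.05 it found 2807 of the 53617 probe sets, 1275 higher and 1532 lower in rGAL1. That is close to the number such a cut passes when no probe set differs, so these are not counted as differences. Of the named genes, 2.98% had an unadjusted p under 0.05. With arrays centred on their medians, 1425 probe sets were higher and 1326 lower. In bulk RNA such as this, fewer expressing cells and less RNA per cell cannot be told apart.

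**Figure D1:**
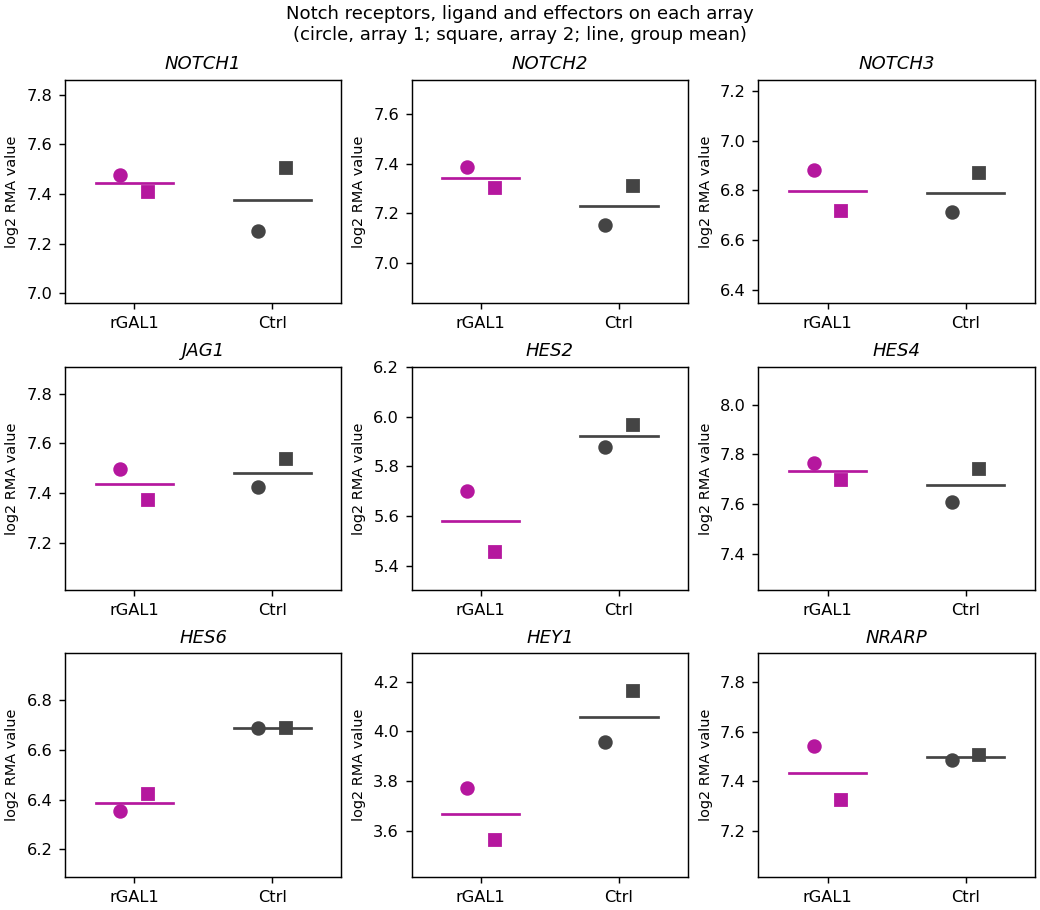
Log2 RMA values of the 9 measured genes on each array, rGAL1 arrays on the left and Ctrl arrays on the right of each panel, with a line at the group mean; every panel spans the same height on the log2 axis. HES2, HES6 and HEY1 show both rGAL1 points below both Ctrl points, and in the other 6 genes the groups overlap.

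NOTCH1, the receptor with the broadest roles in development, measured 7.48 and 7.41 on the rGAL1 arrays 1 and 2, against 7.25 and 7.50 on the Ctrl arrays 1 and 2. Both rGAL1 values lay between the Ctrl values. The difference was 0.07 log2 units (SE 0.13, 95% interval -0.27 to 0.40), and it was -0.06 without Ctrl 1, 0.19 without Ctrl 2 and 0.10 without rGAL1 2.

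NOTCH2, a receptor expressed in ductal and centroacinar cells of the pancreas, measured 7.39 and 7.30 on the rGAL1 arrays, against 7.15 and 7.31 on the Ctrl arrays. The groups overlapped only narrowly, with Ctrl 2 just above rGAL1 2. The difference was 0.11 (SE 0.11, 95% interval -0.18 to 0.41), and each array left out gave a positive value, from 0.03 without Ctrl 1 to 0.19 without Ctrl 2, with 0.16 without rGAL1 2. Human NOTCH2 has near-identical partial copies, the NOTCH2NL genes, whose transcripts its probes can also bind.

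NOTCH3, a receptor best known from vascular smooth muscle and also found in pancreatic tumours, measured 6.88 and 6.71 on the rGAL1 arrays, against 6.71 and 6.87 on the Ctrl arrays. The groups spanned nearly the same range. The difference was 0.01 (SE 0.12, 95% interval -0.31 to 0.33), and it ran from -0.08 without rGAL1 1 to 0.09 without rGAL1 2.

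JAG1, a membrane-bound ligand of these receptors, measured 7.50 and 7.37 on the rGAL1 arrays, against 7.43 and 7.54 on the Ctrl arrays. One rGAL1 array lay within the Ctrl range and the other below it. The difference was -0.05 (SE 0.11, 95% interval -0.34 to 0.24), from -0.11 without rGAL1 1 to 0.02 without rGAL1 2.

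HES2, a repressor of the HES family, measured 5.70 and 5.46 on the rGAL1 arrays, against 5.88 and 5.97 on the Ctrl arrays. The groups did not overlap, with 0.18 log2 units between the nearest rGAL1 and Ctrl arrays, and the rGAL1 arrays lay 0.24 apart. The difference was -0.34 (SE 0.13), a 1.27-fold lower level in rGAL1. It was -0.22 without rGAL1 2, the array with conflicting labels, and -0.47 without rGAL1 1.

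HES6, a family member known in vertebrate neural development for inhibiting HES1, measured 6.35 and 6.42 on the rGAL1 arrays, against 6.69 on each Ctrl array. The arrays of each group lay close together, and the nearest arrays of the groups were 0.27 apart, the widest gap among the 9 genes. The difference was -0.30 (SE 0.10), a 1.23-fold lower level in rGAL1. It ran from -0.34 without rGAL1 2 to -0.27 without rGAL1 1.

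HEY1, a HEY-family repressor and Notch target of endothelial and many tumour cells, measured 3.77 and 3.56 on the rGAL1 arrays, against 3.96 and 4.16 on the Ctrl arrays. The groups did not overlap, with 0.18 between the nearest arrays, slightly less than the 0.21 between the arrays of each group. The difference was -0.39 (SE 0.14), and it ran from -0.50 without rGAL1 1 to -0.29 without rGAL1 2. HEY1 was the 1 member below 4.70, the median level of all probe sets, here called the dim level. The table gives no detection call, so whether HEY1 was above background is not known, and its difference is not given as a fold. Differences of dim genes were larger in general: the median absolute difference was 0.12 over the 2298 named genes within 0.5 log2 units of the HEY1 level and 0.08 over all named genes.

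HES4, a family member of the human genome that mice lack, measured 7.77 and 7.70 on the rGAL1 arrays, against 7.61 and 7.74 on the Ctrl arrays. The groups overlapped. The difference was 0.06 (SE 0.11, 95% interval -0.23 to 0.34), and it was -0.01 without Ctrl 1, 0.12 without Ctrl 2 and 0.09 without rGAL1 2.

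NRARP, an ankyrin repeat protein that is induced by Notch and limits the signal by destabilising the intracellular domain, measured 7.54 and 7.33 on the rGAL1 arrays, against 7.49 and 7.51 on the Ctrl arrays. The rGAL1 arrays fell on either side of the Ctrl arrays. The difference was -0.06 (SE 0.12, 95% interval -0.38 to 0.25), and it ran from -0.17 without rGAL1 1 to 0.05 without rGAL1 2.

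**Figure D2:**
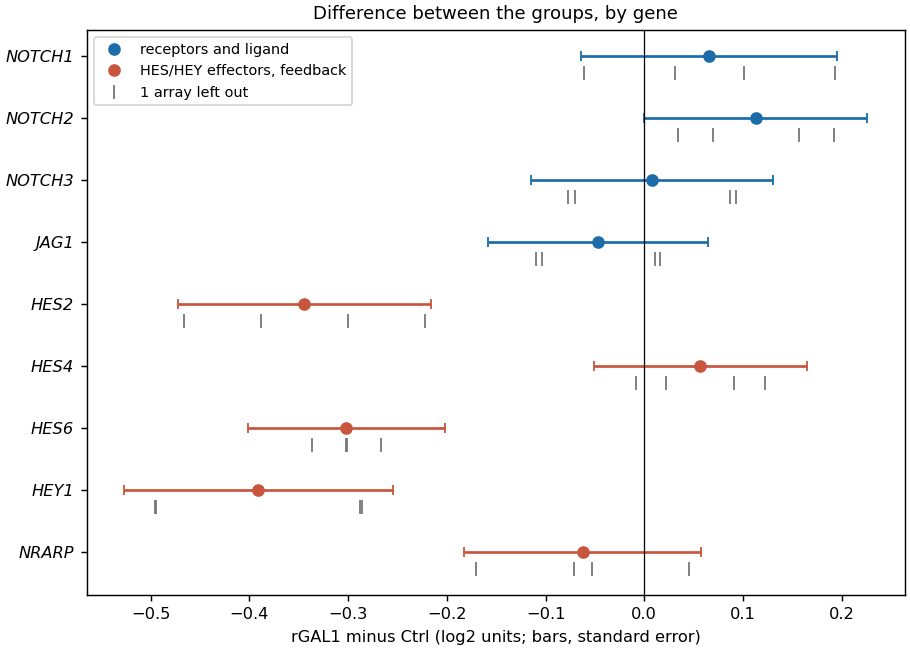
Difference of rGAL1 minus Ctrl in log2 units for each gene, with points at the fitted value, bars of 1 standard error and ticks at the values with 1 array left out. HES2, HES6 and HEY1 lie between -0.39 and -0.30 with all their ticks below 0; the ticks of NOTCH1, NOTCH3, JAG1, HES4 and NRARP fall on both sides of 0.

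Receptors and ligand against effectors, the median difference was 0.04 over NOTCH1, NOTCH2, NOTCH3 and JAG1 and -0.30 over the 5 genes HES2, HES4, HES6, HEY1 and NRARP, here called the effector median, beside 0.01 over all named genes. The effector median is the value of HES6 itself, with HES2 and HEY1 below it and HES4 and NRARP near 0, so it does not stand for the group as a whole. The receptor and ligand median was -0.066 without Ctrl 1, -0.02 without rGAL1 1, 0.14 without Ctrl 2 and 0.10 without rGAL1 2, and thus changed sign. The effector median ran from -0.30 without Ctrl 1 to -0.22 without rGAL1 2. The middle gene changed between these settings: the -0.22 is the value of HES2, and HES6 was then -0.34. With rGAL1 2 counted as a Ctrl array, as its treatment field has it, the receptor and ligand median was 0.10 and the effector median -0.07. The differences were then -0.25 for HES6, -0.12 for HEY1 and -0.07 for HES2.

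All rGAL1 arrays lay below all Ctrl arrays in 3 of the 9 genes and above them in 0. Among all named genes 17.0% lay below in this way, 20.2% above and 37.2% one way or the other. Since the genes were chosen with these differences known, nothing is read from the count. HES2, HES6 and HEY1 were the 3 also without Ctrl 2 and without rGAL1 2, where 31.7% of named genes lay below. Without rGAL1 1 the count was 5 of 9, with JAG1 and NRARP added and 32.1% of named genes below, and without Ctrl 1 it was 5 of 9, with JAG1 and NOTCH1 added and 34.6% below. A lower difference than that of HEY1 was found in 0.847% of named genes, than that of HES2 in 1.40%, and than that of HES6 in 2.23%. These shares follow from the same choice of genes, so they are descriptions and no test. They are taken over genes of every level, though HEY1 was dim.

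The members also varied between the 2 arrays of the same group, which the difference between the groups does not show. In 8 of the 9 genes rGAL1 1 was above rGAL1 2 and Ctrl 2 was above Ctrl 1, an ordering found in 27.6% of named genes and in 22 of 65 other pathway genes, or 33.8%. HES6 was the exception, with its rGAL1 arrays in the other order and its Ctrl arrays 0.0009 apart. For NOTCH1, the rGAL1 arrays differed by 0.07 and the Ctrl arrays by 0.25; for HES2, the rGAL1 arrays differed by 0.24 and the Ctrl arrays by 0.09. This ordering was noticed in the data and was not tested. The members share the same 4 arrays, whose values were known when the genes were chosen, so it is a description alone. The gap between arrays of 1 group reached 0.24 log2 units in rGAL1 and 0.25 in Ctrl, larger than every difference between the groups among the receptors, JAG1, HES4 and NRARP.

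**Figure D3:**
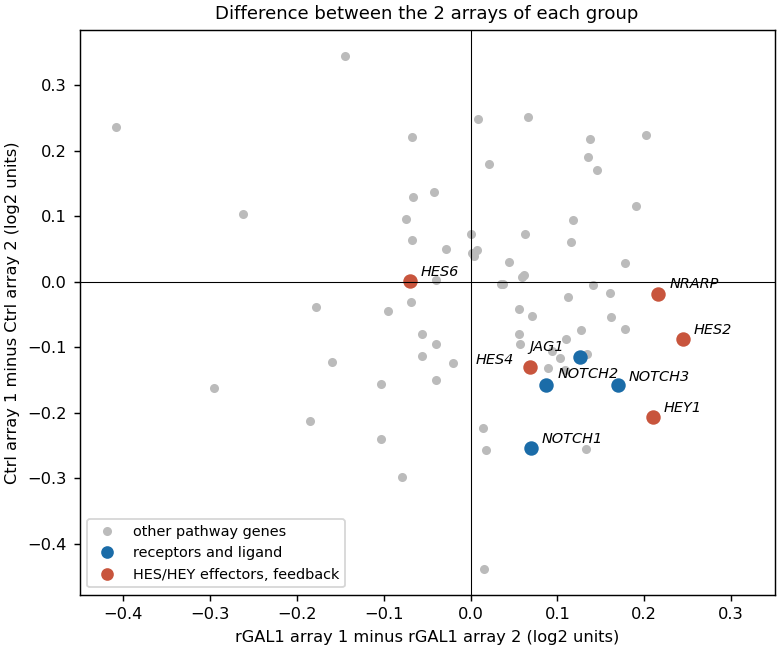
Difference between the 2 rGAL1 arrays (horizontal) and between the 2 Ctrl arrays (vertical), in log2 units, with 1 point a gene; the 9 members are coloured and 65 other pathway genes are grey. All members except HES6 lie in the lower right part of the plot, where rGAL1 1 exceeds rGAL1 2 and Ctrl 2 exceeds Ctrl 1.

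Other genes of the Notch pathway were taken from lists drawn up from general knowledge, with 65 of 83 genes measured. limma called 0 of them higher and 0 lower, and 0 had an unadjusted p under 0.05, against 2.98% of all named genes. Means were higher in rGAL1 for 37 and lower for 28, with a median of 0.02 beside 0.01 over all named genes. The arrays of the groups did not overlap in 22 of 65, 14 of them higher and 8 lower. That is 33.8%, close to the 37.2% of all named genes.

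Among the other 8 receptors and ligands, with a median difference of -0.002, NOTCH4, a receptor of endothelial cells, measured 5.32 and 5.39 on the rGAL1 arrays, against 5.47 and 5.37 on the Ctrl arrays. JAG2, the second Jagged ligand, measured 7.52 and 7.46 in rGAL1, against 7.46 and 7.50 in Ctrl, a difference of 0.01 (SE 0.10). Both overlapped between the groups. DNER, a ligand-like protein of neurons, was the 1 gene of this list whose groups did not overlap, at 0.11 (SE 0.11). That is 12.5% of the list, beside 37.2% of all named genes. The delta-like ligands DLL1, DLL3 and DLL4 and the related DLK1, DLK2 overlapped between the groups.

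The cleavage machinery had a median of 0.02 over the 8 measured genes. ADAM10, the sheddase that makes the first ligand-dependent cut, measured 7.92 and 7.81 in rGAL1, against 7.88 and 7.79 in Ctrl, a difference of 0.03 (SE 0.11). ADAM17, a related sheddase, differed by 0.10 (SE 0.11), and its rGAL1 arrays lay just above its Ctrl arrays.

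Glycosyltransferases that act on the receptors had a median of -0.01 over 9 genes, with 3 separated higher and 2 lower, a share of 55.6% beside the 37.2% of all named genes. MFNG, the manic fringe enzyme that extends O-linked fucose on Notch, measured 4.76 and 4.80 on the rGAL1 arrays, against 5.03 on each Ctrl array. These levels were near the dim level of 4.70. The MFNG difference was -0.25 (SE 0.10, limma adjusted p = 0.919), and it was -0.27 without rGAL1 2. The xylosyltransferases GXYLT1 and GXYLT2, which extend O-linked glucose, differed by 0.22 (SE 0.11) and 0.20 (SE 0.10), each with both rGAL1 arrays above both Ctrl arrays, and by 0.27 and 0.22 without rGAL1 2. LFNG, lunatic fringe, overlapped between the groups at -0.07 (SE 0.11). None of these passed the test.

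In the list of ubiquitin ligases and trafficking factors, with a median of 0.02 over 13 of 14 genes, NUMBL, a relative of the Notch inhibitor NUMB, differed by 0.19 (SE 0.10), DTX3L by 0.11 and the ubiquitin ligase ITCH by -0.05. In the nuclear complex, with a median of 0.05 over 15 of 23 genes, RBPJ measured 7.43 and 7.29 in rGAL1, against 7.34 on each Ctrl array, a difference of 0.02 (SE 0.11). The coactivator MAML2 differed by 0.15 (SE 0.11), and a second, dimmer MAML2 probe set gave -0.47. RBPJL, the pancreatic acinar paralogue of RBPJ, differed by 0.20 (SE 0.13) and the acetyltransferase KAT2B by -0.18 (SE 0.11).

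Of the other HES and HEY genes, 5 of the 8 listed were measured, with a median of -0.04. HEYL, the third HEY-family repressor, measured 5.62 and 5.66 on the rGAL1 arrays, against 5.93 and 5.79 on the Ctrl arrays, a difference of -0.22 (SE 0.11; limma, adjusted p = 0.919) that was -0.24 without rGAL1 2. It was the 1 gene of the list whose groups did not overlap, a share of 20% beside the 37.2% of all named genes. HES3, HES5, HES7 and HEY2 overlapped, with differences from -0.07 to 0.06. Other genes named as Notch targets had a median of -0.02 over 11 of 16, where CCND1, a cyclin, differed by -0.05 and NFKB2, an NF-kB subunit, by 0.07.

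**Figure D4:**
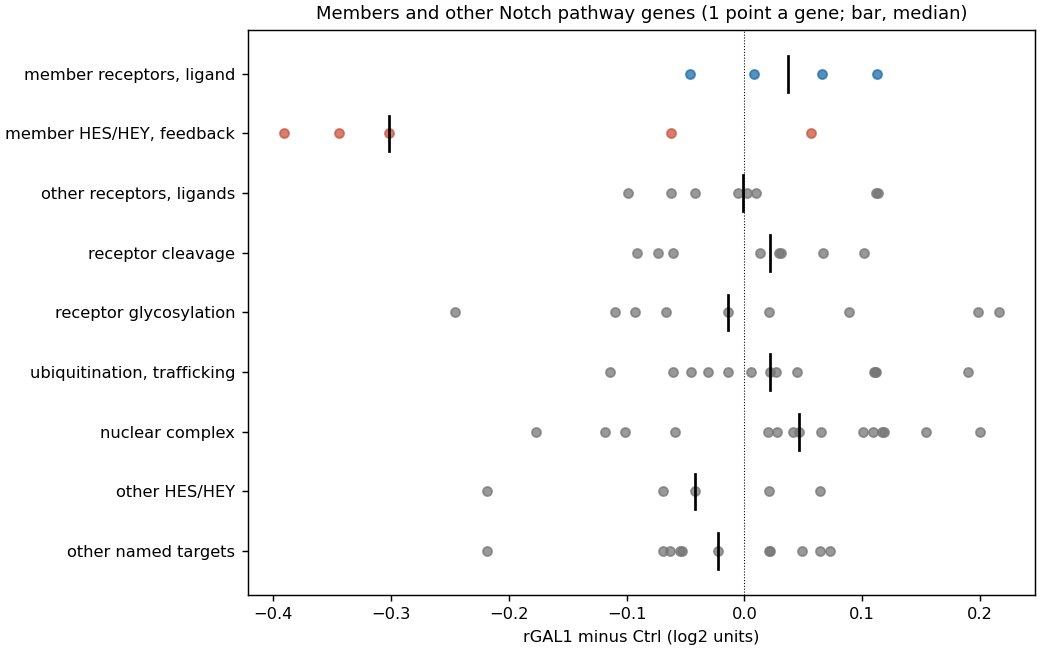
Difference of rGAL1 minus Ctrl in log2 units, 1 point a gene and a bar at the median, for the members and for 7 lists of other Notch pathway genes; genes in 2 lists appear in both. The medians of the other lists lie between -0.04 and 0.05, and MFNG and HEYL are the lowest points among them.

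Transcription factors of neural, secretory and endocrine fate, several of which HES repressors hold down, had a median of 0.02 over 4 of 7 genes. Their differences ran from -0.19 to 0.03, and all overlapped between the groups. The labelled cell type was checked on marker lists. Duct and epithelial markers had a median of 9.44 in rGAL1 and 9.42 in Ctrl over 7 of 10 genes, with EPCAM, KRT19 and SOX9 well above the dim level and SPP1 below it, at 4.28 in rGAL1 and 4.02 in Ctrl. KRT7, a duct keratin, was nearer to it, at 4.76 and 5.20 in rGAL1, against 5.37 and 5.36 in Ctrl. The KRT7 difference was -0.38, and -0.60 without rGAL1 2. The other measured duct markers differed by -0.10 (KRT8), -0.05 (KRT18), -0.05 (SOX9), 0.02 (KRT19), 0.09 (EPCAM) and 0.26 (SPP1). The lists for other cell types had median levels in rGAL1 of 5.54 for leukocyte, 5.33 for endocrine, 4.84 for acinar, 4.48 for endothelial and 3.18 for fibroblast markers, with 2 of 9 fibroblast markers measured. Levels of different probe sets depend on their probes, so these medians are no ranking of cell types. Of the leukocyte list 3 of 9 were measured, and the lysosomal protein gene CD68, which many cell types express, differed by 0.39 (SE 0.12), and by 0.34 without rGAL1 2. Of the others, NKG7 differed by -0.15 and CD14 by 0.10. The acinar protease CTRB1 differed by 0.61 (SE 0.18), and by 0.42 without rGAL1 2. The other measured acinar markers differed by 0.12 (CPA1), 0.06 (CPB1), -0.16 (CEL) and -0.006 (PNLIP). KRT7, CD68, CTRB1 and the other markers, named after their values were seen, did not pass the test (limma, smallest adjusted p = 0.919). On a linear scale the summed level of the measured leukocyte markers was 359 and 380 on the rGAL1 arrays, against 294 and 315 on the Ctrl arrays, and without CD68 it was 79.2 and 80.02 in rGAL1, against 85.4 and 79.9 in Ctrl. The sum of the acinar markers was 130.4 and 148 in rGAL1, against 128 and 118 in Ctrl, and without CTRB1 it was 87.1 and 91.9 in rGAL1, against 91.97 and 88.9 in Ctrl. Their part in the values of the Notch genes was not tested.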

How the data were processed

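RNA of RWP-1 cells was measured on 4 arrays, 2 for rGAL1 and 2 for Ctrl, grouped by the sample titles. The authors deposited log2 expression values per probe set, and the submitters' processing notes name RMA and limma without versions or settings. In RMA, background correction and the summary over probes can compress differences of dim probe sets. The differences observed among named genes near the HEY1 level were nonetheless larger than over all named genes, as given above. Array medians lay between 4.69 and 4.72.

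Of 53617 probe sets, 16098 had 1 symbol in the platform annotation. The rest had none or more than 1 and were not assigned to a gene. A gene was represented by its brightest probe set over the 4 arrays. All probe sets were fitted with limma 3.58.1 in R 4.3.3 (lmFit, eBayes, default prior, two-sided, Benjamini-Hochberg over all probe sets, no block), with 2 residual and 2.75 prior degrees of freedom. The fit was tested on simulated data whose changes were larger than those of the members. How often changes as small as theirs would be called was not assessed. Differences are rGAL1 minus Ctrl.

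The members and lists were chosen with earlier results of these data known. Pathway genes were named where called or, with none called, up to 3 per list with the smallest p among those whose groups did not overlap, plus RBPJ, JAG2, NOTCH4, ADAM10 and LFNG. One further gene of that rule is not reported here. Marker genes were named after their values were seen. Genes of like pattern were not sought, since 4 arrays are too few for a correlation. Alternatives left out each array, added a replicate block, moved rGAL1 2 to Ctrl, and changed normalization, prior, filter and probe set choice.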

Additional observations from a re-analysis of the deposited data

How the results depend on the processing

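With limma, 0 probe sets and 0 other Notch pathway genes were called under every alternative run, the replicate block and the fits without 1 array (0 to 0) included. The deviations of same-numbered arrays correlated at r = -0.0476 over probe sets, so the numbers were not taken to pair the arrays; the block leaves the differences themselves as they were, with medians of 0.04 for the receptors and ligand and -0.30 for the effectors. Leaving out 1 array gave medians of -0.066 to 0.14 for the receptors and ligand and of -0.30 to -0.22 for the effectors. Counting rGAL1 2 as Ctrl gave 0.10 for the receptors and ligand and -0.067 for the effectors. It was also the setting under which the differences of JAG1, HES2, HES6, HEY1 and NRARP moved by more than the spread between replicates. By construction rGAL1 1 then stands alone, with no spread of its own. The count of members with all rGAL1 arrays below all Ctrl arrays, 3, was 3 to 5 without 1 array, an alternative chosen after seeing the data. The filter on dim probe sets leaves out HEY1.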
